A study of Mus musculus with 2 samples.

Results

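The score-high wild-type cells are 111 mouse iPSCs (pluripotent stem cells made from body cells by reprogramming). They were chosen by a readout of the library itself, the share of their RNA molecules that came from 6 genes. The genes were Ndufa4l2, Bnip3, Ddit3 and Ddit4, of the hypoxia and stress responses, and the metabolic genes Ldhb and Pgm2. The score of a cell was the sum of their unique molecular identifiers (UMIs, tags that count single RNA molecules) over all UMIs of the cell. The members are the top 15% by score of the 740 wild-type cells with at least 1000 genes, at least 15000 UMIs and 1 to 10% mitochondrial UMIs, out of 954 deposited wild-type cells and 2027 cells in the series. They were compared with the 370 wild-type cells of the lowest 50% of scores, and the 259 cells between were set aside.

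The series profiled iPSCs on the droplet platform of 10x Genomics, with 1 library per genotype. The wild-type cells are SRF f/f, that is, they keep the floxed alleles of Srf, the gene of serum response factor, and the knockout cells are SRF Δ/Δ. Both were grown in medium with serum, and the labels name neither a low-oxygen or drug treatment nor the clone or number of cultures behind a library. Srf was at 8.79 CPM (UMIs of a gene per 1000000 UMIs of the same cells), from 192 UMIs, in the filtered wild-type cells and at 0.905 CPM (16 UMIs) in the 632 knockout cells that passed the same filter. The score-high cells held 24 Srf UMIs (7.09 CPM, interval 4.55 to 10.6) and the lowest 50% held 102 (9.33 CPM, interval 7.61 to 11.3). Cells of 1 library are not replicates, so no test was made and no p-value is given. Intervals are exact at 95% and cover counting error only.

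Hypoxia-inducible factors (HIFs) are transcription factors whose alpha subunits are hydroxylated and destroyed while oxygen is plentiful, and which accumulate and raise glucose uptake, glycolysis and mitophagy genes when it is scarce. The integrated stress response starts from kinases that phosphorylate a translation initiation factor and favour synthesis of ATF4, a transcription factor that raises genes of amino acid supply and tRNA charging as well as Ddit3, Chac1 and Trib3. Pluripotent stem cells are known for a high glycolytic flux.

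The score itself chose the members, so its values are given as a description, in CPM summed over the 6 genes. Members had scores from 881.8 to 4658 CPM, with a median of 1318, and the lowest 50% ran from 0 to 347.3 with a median of 196. In UMIs, a member carried 17 to 122 of the 6 genes (median 40) and a cell of the lowest 50% carried 0 to 18 (median 6). The boundary is a point on a continuous range: the 5 members just inside reached 926.5, the 5 cells just outside went down to 861.4, and 35 cells lay within 10% of the limit, 10 of them members. Ldhb, a lactate dehydrogenase subunit, gave 34.2% of the members' score UMIs. Ddit4, an inhibitor of mTOR signalling induced by hypoxia and stress, gave 26.6%, and Bnip3, a mitophagy receptor, gave 22.1%. Ndufa4l2, a HIF-induced protein related to a respiratory chain subunit, gave 7.54%, Ddit3, the stress transcription factor CHOP, gave 4.91%, and Pgm2, a phosphoglucomutase, gave 4.71%. Ldhb was the leading gene in 51 members, Ddit4 in 37, Bnip3 in 22 and Ndufa4l2 in 1. All 6 genes were detected in 52 members, 5 in 36, 4 in 18 and 3 in 5.

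**Figure D1:**
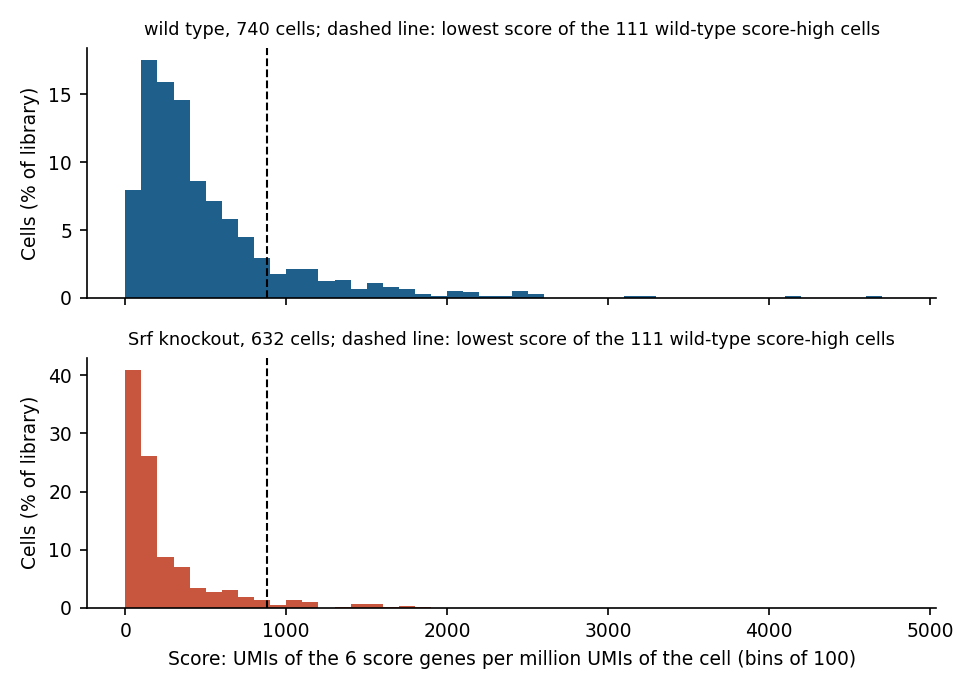
Histograms of the score (UMIs of the 6 score genes in CPM, bins of 100, x axis) as a percentage of the 740 wild-type (upper) and 632 knockout cells (lower). The dashed line at 881.8 marks the lowest score of the 111 wild-type score-high cells, and the tail of scores runs to 4658 in the wild type and to 1882 in the knockout.

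Depth was alike in the groups compared. The members' median was 29324 UMIs and 4384 genes, against 28773 UMIs and 4443 genes in the lowest 50%. Primitive endoderm markers summed to 25 UMIs, with no member at 5 or more, against 313 in the lowest 50%, where 4 cells had 5 or more. Fibroblast markers, which feeder cells would carry, summed to 116 UMIs, with 1 member at 5 or more and up to 94 UMIs in a cell, against 713 and 3 cells. Macrophage markers summed to 62 UMIs with 2 members at 5 or more. The trophectoderm, neuroectoderm and mesoderm lists summed to 25, 106 and 17 UMIs. Over the fibroblast, primitive endoderm and macrophage lists together, 4 members held 5 or more UMIs. Of the core pluripotency markers, 110 of 111 members held 5 or more UMIs, a low floor that does not by itself show that a cell is pluripotent. By S and G2M gene lists 44 members were in S phase (39.6%, exact binomial interval 30.5 to 49.4) and 64 in G2M (57.7%, interval 47.9 to 67.0), beside 37.8% and 61.1% of the lowest 50%. Scrublet, which simulates doublets, called no member. Ribosomal protein genes took 38.1% of UMIs in the members and 37.9% in the lowest 50%. Cells with a raised share of chromosome 8 transcripts (above 1.2 times the wild-type median) made up 5.41% of members (6 cells, interval 2.01 to 11.4) and 12.7% of the lowest 50% (47 cells, interval 9.48 to 16.5). The part of that difference in the results was not tested.

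Genes were measured where the mean level of both groups was 20 CPM or more. Of these 4329 genes, score genes left out, 295 (6.81%) were 1.5 times or more higher in the score-high cells and 265 (6.12%) were 1.5 times or more lower. These shares are the background for every count of genes below, and the median log2 ratio of all genes was 0.01. A ratio is the CPM of the summed counts of the score-high cells over that of the lowest 50%, on the log2 scale with 0.5 counts added to each sum. The score is a readout of the same cells, so counts and medians describe these cells and test nothing.

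The gene of highest ratio was Anxa2, a calcium-dependent phospholipid-binding protein (chromosome 9, 69453620 to 69491795, mm10). It was at 56.8 CPM in the score-high cells and at 8.23 CPM in the lowest 50%, a log2 ratio of 2.78 (interval 2.42 to 3.16). No single cell gave more than 8.85% of the members' Anxa2 UMIs, but 1 cell gave 30% of those in the lowest 50%. Stc2, a secreted glycoprotein of the stress response (chromosome 11, 31357307 to 31370074), was at 37.5 and 6.59 CPM, a log2 ratio of 2.51 (interval 2.08 to 2.95). Espn, an actin-bundling protein (chromosome 4, 152120331 to 152152371), was at 51.7 and 9.24 CPM, a log2 ratio of 2.48. Aldoc, the brain-type aldolase (chromosome 11, 78322968 to 78327781), had a log2 ratio of 2.14, and Egln3, a HIF prolyl hydroxylase that is itself a HIF target (chromosome 12, 54178981 to 54203860), had 1.98. Acp5, the tartrate-resistant acid phosphatase, had 2.05, Dhrs7, a short-chain dehydrogenase, 1.60, and Fxyd6, a regulator of the sodium pump, 1.51. Jun, a subunit of the AP-1 factor, was at 81.0 and 29.5 CPM, a log2 ratio of 1.46. The small nucleolar RNA host gene Snhg12 was at 213 and 79.5 CPM (1.43), and the unnamed gene 5430416N02Rik at 70.4 and 23.9 CPM (1.56). The remaining genes of the top 15, Chac1, P4ha1, Bhlhe40 and Ankrd37, belong to the lists described below.

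At the other end stood some regulators of development, such as Cdx1 and Tcf15, beside genes of other or unknown roles. RP23-4H17.3, a gene named only by its clone (chromosome 7, 127434422 to 127439392), was at 3.84 CPM in the score-high cells and at 36.6 CPM in the lowest 50%, a log2 ratio of -3.20 (interval -4.17 to -2.46). Cdx1, a caudal-type homeobox factor (chromosome 18, 61018862 to 61036199), was at 5.32 and 39.7 CPM, a log2 ratio of -2.86 (interval -3.67 to -2.22). Id1, an inhibitor of basic helix-loop-helix factors, was at 9.76 and 33.7 CPM (-1.77), and 1 cell gave 27.3% of the members' Id1 UMIs. Tcf15, a helix-loop-helix factor of early epiblast, was at 174 and 425 CPM, a log2 ratio of -1.29 (interval -1.42 to -1.17). With every cell thinned to 15000 UMIs, members had a median of 2 Tcf15 UMIs and the lowest 50% a median of 5. Tet2, a dioxygenase that oxidises methylcytosine, had -1.29, Tle4, a corepressor, -1.28, and Cluh, which binds messages of nuclear-encoded mitochondrial proteins, -1.27. Fam25c and 1190005I06Rik had -1.30 and -1.33.

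**Figure D2:**
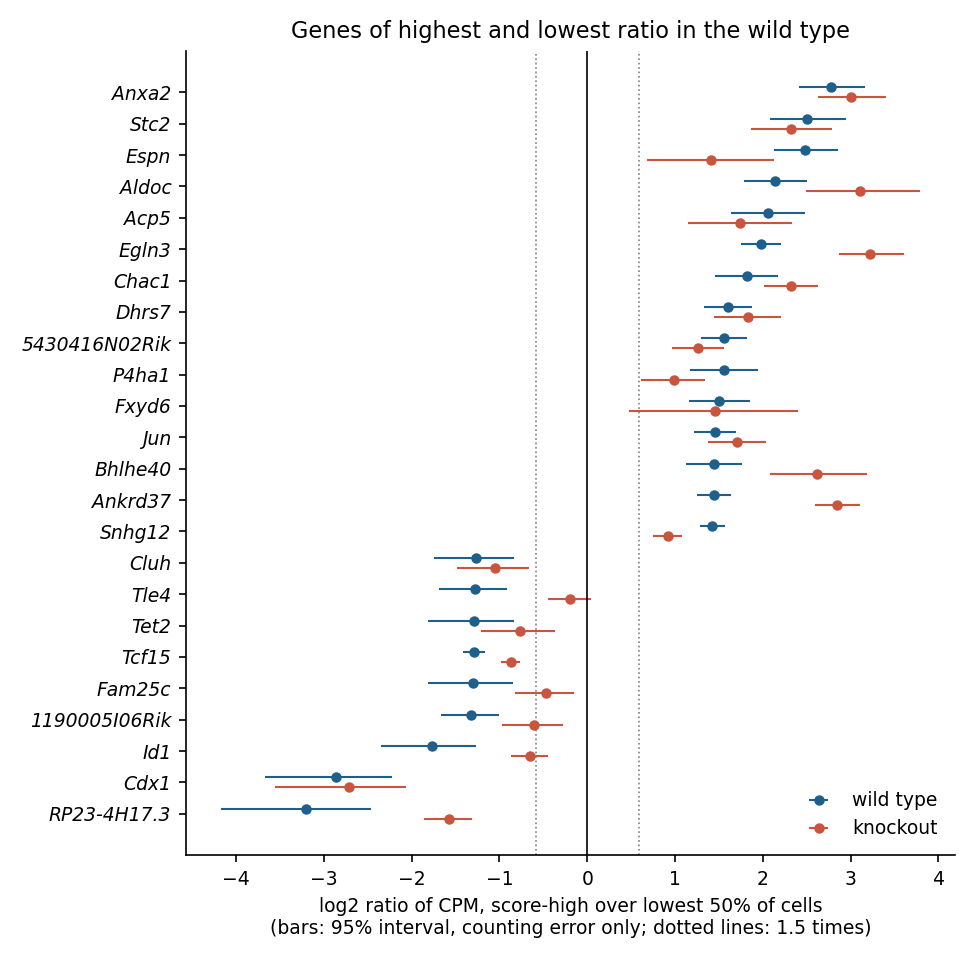
Log2 ratio of CPM, score-high over the lowest 50% of cells (x axis), for the 15 genes of highest and 9 of lowest ratio in the wild type, with wild-type (blue) and knockout (red) values. Bars are 95% intervals of counting error and dotted lines mark 1.5 times. Wild-type ratios run from 2.78 for Anxa2 to -3.20 for RP23-4H17.3, and every knockout ratio has the same sign.

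Targets of HIF were higher as a group. Of the 30 genes of the list, 14 passed the minimum level. Of these, 9 were 1.5 times or more higher and none was 1.5 times or more lower, and their median log2 ratio was 0.89. Summed over the list, a member carried 685 to 5864 CPM (median 2644) and a cell of the lowest 50% carried 523 to 4107 (median 1467), so the groups overlapped. Egln3 was at 105 CPM in the score-high cells and at 26.5 CPM in the lowest 50%. P4ha1, a collagen prolyl hydroxylase subunit, was at 32.2 and 11 CPM (1.55). Bhlhe40, a repressor of the circadian and hypoxia responses, was at 44.9 and 16.5 CPM (1.45). Ankrd37, an ankyrin repeat protein known as a strong HIF target, was at 124 and 45.6 CPM (1.45, interval 1.26 to 1.64). Ero1l, an oxidase of disulfide formation, had 1.34, Fam162a, a mitochondrial protein, 1.10, Bnip3l, the paralogue of Bnip3, 0.92, Slc2a1, a glucose transporter, 0.87, and Higd1a, a respiratory chain assembly factor, 0.72. The list was not uniform. Pdk1, the kinase that inactivates pyruvate dehydrogenase, was at 107 and 103 CPM (0.05, interval -0.13 to 0.22), Slc2a3, another glucose transporter, had 0.15, and Gys1, glycogen synthase, and Kdm3a, a histone demethylase, had -0.24 and -0.37.

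Several well-known HIF targets stayed below the minimum level and were not counted. Adm, the peptide hormone adrenomedullin, had 36 UMIs in the 111 score-high cells and 6 in the 370 cells of the lowest 50%, a log2 ratio of 4.18 (interval 3.02 to 5.82). Ndrg1, a stress-induced cytoplasmic protein, had 80 and 61 UMIs (2.08, interval 1.58 to 2.59), and the prolyl hydroxylase genes P4ha2 (38 and 40 UMIs) and Egln1 (70 and 102 UMIs) had 1.62 and 1.15. Vegfa, the angiogenic growth factor, had 42 and 75 UMIs (0.86, interval 0.27 to 1.42). Car9, a carbonic anhydrase often used as a hypoxia marker, had 1 UMI in the score-high cells and 7 in the lowest 50% (log2 ratio -0.63, interval -6.61 to 1.85), too few for a direction. Of the genes that sense oxygen, 3 of 8 passed the minimum level. Hif1a, the alpha subunit, was at 20.7 and 28.8 CPM (-0.47, interval -0.87 to -0.10), Egln2, a prolyl hydroxylase, at 34.0 and 47.8 CPM (-0.49), and Cited2, which competes with HIF for its coactivators, at 18.3 and 37.6 CPM (-1.03, interval -1.45 to -0.65). HIF is controlled largely through its protein, which these data do not hold.

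Most glycolytic genes were higher. Of the 18 genes of the list, 15 passed the minimum level. Of these, 12 were 1.5 times or more higher and 1 was lower, with a median log2 ratio of 1.03. Per cell the list summed to 4859 to 24227 CPM in members (median 12709) and to 2802 to 20740 in the lowest 50% (median 5987). Following the pathway from glucose, the isomerase gene Gpi1 was at 430 and 187 CPM (1.2), the phosphofructokinase genes Pfkl and Pfkp had 1.13 and 0.71, and the aldolase gene Aldoa was at 1748 and 776 CPM (1.17). Tpi1, triose phosphate isomerase, had 1.03, Gapdh, glyceraldehyde phosphate dehydrogenase, 0.91, Pgk1, phosphoglycerate kinase, 1.33, Eno1, enolase, 1.25, and Pkm, pyruvate kinase, 0.89. Ldha, the lactate dehydrogenase subunit not in the score, was at 1915 and 952 CPM (1.01), and Slc16a3, a lactate exporter, at 88.7 and 37.1 CPM (1.26). Pgam1, phosphoglycerate mutase, had 0.58, just short of 1.5 times. Hexokinase Hk2 was not higher (154 and 181 CPM, -0.23, interval -0.38 to -0.09), and Slc16a1, the other monocarboxylate transporter, was lower (20.4 and 30.9 CPM, -0.59, interval -1.0 to -0.22). In cells thinned to 15000 UMIs, the median Aldoa count was 25 in members (quartiles 19 to 34) and 11 in the lowest 50% (quartiles 7.25 to 14), and the median Gapdh count was 49 against 25. Gapdh, Pgk1, Eno1 and some other genes of this list have near-identical processed copies, and how shared reads were counted is not stated, so their values are uncertain.

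Upstream sequences of genes from these lists were searched for the core letters of the HIF binding site, ACGTG, and for TGATGNAA, the core of the site of ATF4 with its C/EBP partners, on both strands. Sequences are those of RefSeq (GRCm38.p6), 300 bases per window from 250 before to 50 after a start. By symbol or unique synonym, 3509 of the 4329 measured genes had at least 1 window (81.1%). A gene counted as holding a motif when any of its windows did. ACGTG was held by 32.7% of these genes and by 19.6% of all 32851 windows, TGATGNAA by 2.22% and 3.97%. Of the 15 measured glycolysis genes, all of which had a window, 10 (66.7%) held ACGTG: Aldoc, Pgk1, Slc16a3, Aldoa, Ldha, Gapdh, Pkm, Pgam1, Hk2 and Slc16a1. These include Hk2 and Slc16a1, which were not higher. Of 8 measured stress response regulators with a window, 3 (37.5%) held TGATGNAA: Chac1, Trib3 and Nupr1. Of the 241 higher genes with a window, 36.5% held ACGTG. For the HIF, amino acid and tRNA synthetase lists and for the lower genes fewer than 80% of members had a window, so no share is given. A match is a description of letters, not of binding.

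The 250 bases upstream of the start are shown for 6 genes. They were chosen after their values were seen, from the lists that the score-high cells carried at high levels and from the score. All 6 hold a motif, so they do not show how common motifs are in these lists. Stc2, the stress regulator of highest ratio, is not shown, and its window holds neither motif. Letters run 5′ to 3′ on the strand of the gene, and capitals mark ACGTG or TGATGNAA or their reverse complements. Egln3 (chr12:54203875-54204124, minus strand) holds ACGTG with its first base 229 bases before the start, and Ankrd37 (chr8:45999851-46000100, minus strand) at 241 and 6 bases. Pgk1 (chrX:106186850-106187099, plus strand) holds it at 150 and, on the other strand, at 131 bases. Bnip3, a gene of the score (chr7:138909507-138909756, minus strand), holds it on both strands in an overlap, at 108 and 107 bases. Chac1 (chr2:119350992-119351241, plus strand) holds TGATGNAA on the other strand at 193 bases, and Nupr1 (chr7:126625471-126625720, minus strand) holds it there at 110 bases, with ACGTG on both strands in an overlap at 225 and 224 bases.
Egln3: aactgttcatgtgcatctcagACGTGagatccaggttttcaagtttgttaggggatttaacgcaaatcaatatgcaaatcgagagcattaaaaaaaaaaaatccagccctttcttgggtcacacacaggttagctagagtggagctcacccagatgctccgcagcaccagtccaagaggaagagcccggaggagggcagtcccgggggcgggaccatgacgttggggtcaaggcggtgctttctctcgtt
Ankrd37: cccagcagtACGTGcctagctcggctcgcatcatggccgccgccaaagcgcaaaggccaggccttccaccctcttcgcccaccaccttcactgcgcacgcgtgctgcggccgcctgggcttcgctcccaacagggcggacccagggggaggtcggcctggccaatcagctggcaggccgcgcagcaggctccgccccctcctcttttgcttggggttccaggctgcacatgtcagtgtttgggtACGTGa
Pgk1: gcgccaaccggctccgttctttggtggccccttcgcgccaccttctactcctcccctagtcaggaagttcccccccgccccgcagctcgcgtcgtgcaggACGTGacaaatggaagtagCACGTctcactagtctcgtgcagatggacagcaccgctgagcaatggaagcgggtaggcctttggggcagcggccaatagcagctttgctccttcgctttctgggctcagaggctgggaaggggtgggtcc
Bnip3: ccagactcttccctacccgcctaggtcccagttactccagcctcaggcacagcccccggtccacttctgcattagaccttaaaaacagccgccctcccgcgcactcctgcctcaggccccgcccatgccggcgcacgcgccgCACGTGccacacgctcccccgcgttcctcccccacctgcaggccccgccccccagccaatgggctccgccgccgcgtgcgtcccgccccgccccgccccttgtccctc
Chac1: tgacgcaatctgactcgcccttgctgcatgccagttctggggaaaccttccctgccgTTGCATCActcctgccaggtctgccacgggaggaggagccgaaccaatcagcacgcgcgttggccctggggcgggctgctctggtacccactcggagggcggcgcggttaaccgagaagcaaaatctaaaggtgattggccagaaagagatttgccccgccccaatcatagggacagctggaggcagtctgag
Nupr1: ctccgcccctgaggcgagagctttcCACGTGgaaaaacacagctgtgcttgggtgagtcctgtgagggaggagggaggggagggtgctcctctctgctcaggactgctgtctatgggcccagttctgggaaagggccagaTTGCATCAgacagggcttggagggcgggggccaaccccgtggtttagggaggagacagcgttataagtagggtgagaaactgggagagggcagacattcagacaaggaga

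Genes of the integrated stress response were higher in part. Of the 20 regulators and targets on that list, 9 passed the minimum level. Of these 6 were 1.5 times or more higher and none lower, with a median log2 ratio of 0.63. Stc2, described above, is one of them. Chac1, which degrades glutathione, was at 39.9 CPM in the score-high cells and at 11.3 CPM in the lowest 50% (1.81, interval 1.45 to 2.18). Trib3, a pseudokinase that restrains ATF4, was at 58.5 and 23.3 CPM (1.33, interval 1.05 to 1.60). Nupr1, a small stress-induced chromatin protein, was at 160 and 74.8 CPM (1.10), Cebpg, a C/EBP partner of ATF4, had 0.63, and Gadd45a, a growth arrest gene, had 0.60. Atf4 itself was at 375 and 268 CPM, a log2 ratio of 0.49 (interval 0.39 to 0.58), short of 1.5 times. Ppp1r15a, which restores translation, had 0.05, and Eif4ebp1, a translation repressor, had -0.12. Atf3, with 56 and 93 UMIs (0.97), and Gdf15, with 17 and 24 UMIs (1.21), were below the minimum level.

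Of 24 genes of amino acid synthesis and transport, 15 passed the minimum level, 4 were 1.5 times or more higher and 1 lower, with a median of 0.41. Asns, asparagine synthetase, was at 173 and 87.1 CPM (0.99, interval 0.84 to 1.14), Pck2, the mitochondrial PEP carboxykinase, had 0.86, Slc3a2, the heavy chain of amino acid transporters, 0.71, and Psph, the last enzyme of serine synthesis, 0.63. The other serine and folate genes Phgdh, Mthfd2 and Psat1 had 0.53, 0.46 and 0.41. Slc7a5, a light chain that pairs with Slc3a2, went the other way, at 34.9 and 54.8 CPM (-0.65, interval -0.95 to -0.36). All 17 genes of the list of tRNA charging were measured, and 4 were higher (Cars 0.84, Sars 0.82, Gars 0.69 and Dars 0.60, the ligases for cysteine, serine, glycine and aspartate), with a median of 0.30. Of 11 measured endoplasmic reticulum chaperones and genes of the unfolded protein response, 1 was higher, the disulfide isomerase Pdia6 (0.60), and the median was 0.25. Hspa5, the main chaperone there, had 0.27. Of 9 measured heat shock genes, 1 was lower (Hsph1, -0.75) and none higher. Of 12 measured p53 targets, 1 was higher, the cell cycle inhibitor Cdkn1a, at 124 and 69.98 CPM (0.82), and the median was 0.01. Of 13 measured antioxidant targets of NRF2, 3 were higher: Gstm1, a glutathione transferase (1.18), the heme oxygenase gene Hmox1 (1.17) and Sqstm1 (0.90). A single cell gave 24.2% of the members' Hmox1 UMIs, and without cells of other types the Hmox1 ratio was 0.91. Of 15 measured genes of sterol synthesis, 4 were higher and 2 lower, with a median of 0.24. That median ranged from 0.00646, with cells ranked by Ddit3 and Ddit4 alone, to 0.869, with a minimum level of 50 CPM. The enzyme genes Fdps (1.10), Mvd (1.05) and Fdft1 (0.87) were among the higher ones. Of 7 measured genes of the Bcl2 family of cell death regulators, none passed 1.5 times in either direction.

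**Figure D3:**
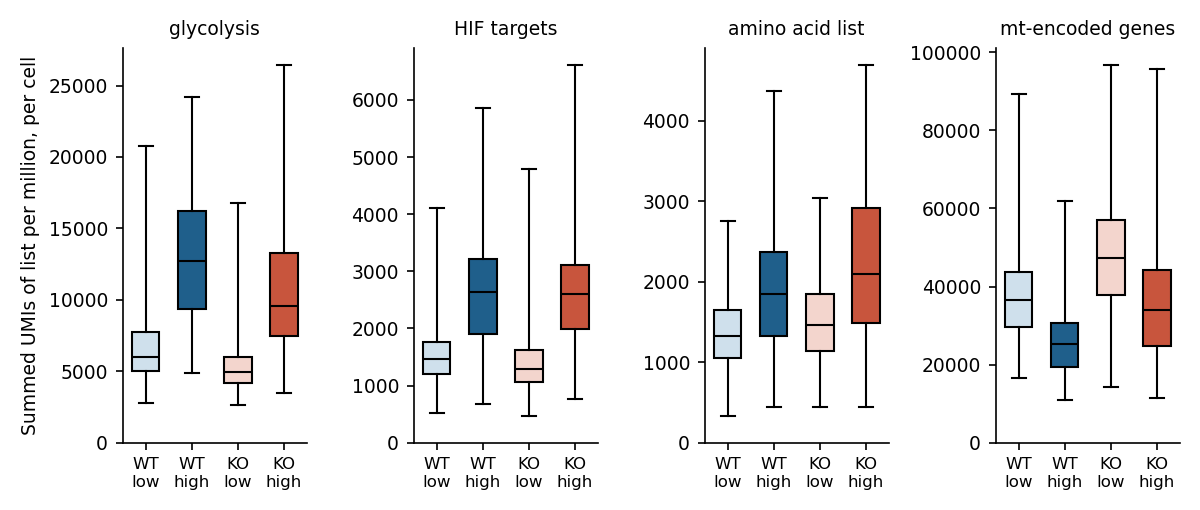
Summed CPM of 4 gene lists in a cell (y axis) in the lowest 50% (low) and the score-high cells (high) of the wild type (370 and 111 cells) and knockout (316 and 95 cells). Boxes are quartiles with the median, and whiskers reach the lowest and highest cell. In the wild type the glycolysis median is 5987 in low and 12709 in high cells, and the groups overlap in every panel.

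Transcripts of the mitochondrial genome were lower. All 12 measured genes had a log2 ratio below 0, from -0.93 to -0.07, with a median of -0.55, and 5 were 1.5 times or more lower. mt-Atp6, an ATP synthase subunit, was at 4579 and 7813 CPM (-0.77), mt-Nd1 at 2901 and 5088 CPM (-0.81), mt-Cytb at 1501 and 2594 CPM (-0.79) and mt-Nd3 at 210 and 401 CPM (-0.93), whereas mt-Co1, an oxidase subunit, was at 6205 and 6719 CPM (-0.11). The median mitochondrial share of a cell was 2.52% in the members and 3.65% in the lowest 50%. The respiratory chain genes of the nucleus stood elsewhere: of 75 measured, 4 were higher (Ndufa9, Atp5b, Ndufv1 and Uqcrc2, 0.61 to 0.94), 2 lower (Atp5g1, -0.67, and Atp5k, -0.61), and the median was 0.06. Of 10 measured autophagy genes, 9 had a log2 ratio above 0, and the median was 0.28. By 1.5 times or more, 2 were higher and 1 lower. Sqstm1, a cargo receptor, had 0.90 and Gabarapl1 0.62, while Gabarapl2, a related ubiquitin-like protein, was at 143 and 294 CPM (-1.04, interval -1.18 to -0.90).

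Pluripotency factors were retained at high levels, with some lower. Pou5f1 was at 788 CPM in the score-high cells and at 847 CPM in the lowest 50% (-0.10, interval -0.17 to -0.04), and Sox2 at 165 and 205 CPM (-0.31). Of 8 core factors, all measured, 3 were 1.5 times or more lower and none higher, with a median of -0.44: the retrotransposon-derived RNA-binding protein L1td1 (68.3 and 136 CPM, -1.0), the zinc finger factor Sall4 (-0.80) and the RNA-binding protein Lin28a (-0.59). Of 16 measured genes of the naive state, 2 were lower, Tfcp2l1 (40.2 and 82.1 CPM, -1.02) and Tbx3 (-0.89), and 2 were higher, Dppa3 (170 and 87.7 CPM, 0.95) and Fbxo15 (0.91). Their median was -0.16. In the knockout it was -0.42, with 5 of these genes lower and 1 higher. Nanog was at about the same level in both, with a log2 ratio of 0.04. Among 4 measured genes of the primed state only Dnmt3a passed 1.5 times, and it was lower (-0.81). Of 34 measured S phase genes 1 was higher and 1 lower, and of 46 G2M genes 1 was lower. Of 16 measured cytoskeletal targets of SRF, the factor deleted in the other library, 1 was lower (Flna, 16.3 and 32.0 CPM, -0.97) and none higher, with a median of 0.06.

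Levels followed the score within the members as well. Wild-type cells were ranked by score in 5 ranges, and each list was summed without the score genes. Relative to the lowest 50%, glycolysis was 1.21 times in the 50 to 70% range, 1.43 times in the 70 to 85% range, 1.76 times in the 74 members of the 85 to 95% range and 2.28 times in the 37 members of the 95 to 100% range. HIF targets were 1.22, 1.44, 1.47 and 2.10 times, that is, level from 70 to 95% and higher above it. Amino acid genes stayed at 1.0 and 1.08 times below the members and reached 1.22 and 1.67 times in them, and the tRNA list reached 1.43 times in the 95 to 100% range. The stress response regulators were at 0.988, 0.949 and 1.03 times up to 95% and at 1.42 times in the 95 to 100% range. That sum is led by Eif4ebp1, which gave 12538 of the list's 19174 UMIs in the lowest 50% and whose ratio was below 0. The mitochondrially encoded genes went down to 0.933, 0.879, 0.717 and 0.616 times, and core pluripotency factors stayed between 0.857 and 0.93 times. Genes of the naive state were at 0.99, 0.98 and 0.947 times up to 95% and at 0.759 times in the 95 to 100% range.

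**Figure D4:**
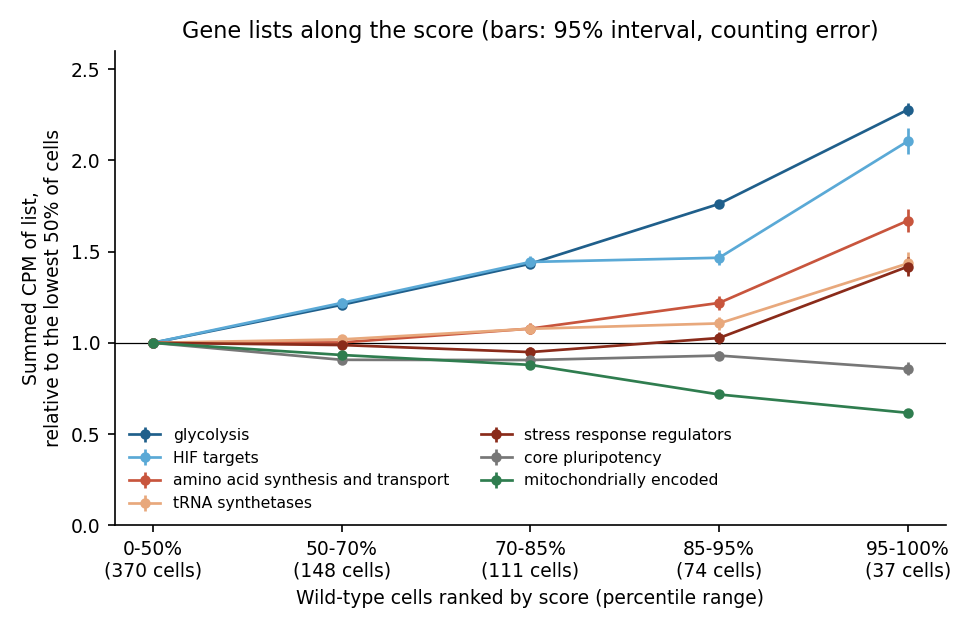
Summed CPM of 7 gene lists (score genes left out), relative to the lowest 50% of cells (y axis), in wild-type cells ranked by score in 5 ranges (x axis, with the number of cells). Bars are 95% intervals of counting error. Glycolysis goes up in each step to 2.28 times, and the mitochondrially encoded genes go down in each step to 0.616 times.

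Each pair of score genes was also used alone to rank the cells, so that the other genes were measured apart from the ranking. The hypoxia pair, Ndufa4l2 and Bnip3, placed 68 of the 111 members in its own top 15%, the stress pair, Ddit3 and Ddit4, placed 75, and the metabolic pair, Ldhb and Pgm2, placed 70. Every pair is part of the score that chose the members, so overlap with them was built in. The tops of the hypoxia and stress pairs shared 58 cells (52.3% of each), and either shared 41 (36.9%) with the metabolic pair. Independent tops of this size would share 16.65 cells (15%). Most UMIs of the stress pair in the members came from Ddit4 (1328, beside 245 of Ddit3), which hypoxia also induces. The overlap of these pairs therefore does not tell a hypoxia response and a stress response apart. In the top of the hypoxia pair, Ddit4 was at 318 CPM against 49.7 CPM in its lowest 50%, a log2 ratio of 2.68 (interval 2.53 to 2.83), and Ddit3 at 60.7 and 14.6 CPM (2.06, interval 1.75 to 2.37). Ldhb and Pgm2 had 1.48 and 1.85 there. The knockout library, ranked in the same way, gave 3.25 for Ddit4, 1.66 for Ddit3, 0.73 for Ldhb and 2.74 for Pgm2. In the top of the stress pair, Ndufa4l2 was at 107 and 19.1 CPM (2.48) and Bnip3 at 302 and 82.1 CPM (1.88) in the wild type. Members were high for different genes: 30 were in the top of all 3 pairs, 42 of 2 and 39 of 1, among them 21 in the metabolic pair alone, 12 in the stress pair alone and 6 in the hypoxia pair alone. All comparisons of this kind share the total UMIs of the cells and their library.

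The pairs carried the gene lists unequally. Among all genes measured, 4.37% were 1.5 times or more higher in the top of the hypoxia pair, 6.2% in that of the stress pair and 4.98% in that of the metabolic pair. HIF targets were higher in 8 of 14, 10 of 17 and 4 of 14 cases, with median log2 ratios of 0.86, 0.90 and 0.42. Trib3 was at 61.0 and 17.5 CPM with the stress pair (1.80, interval 1.51 to 2.10) and at 37.5 and 28.9 CPM with the metabolic pair (0.38, interval 0.07 to 0.68). Chac1 had 2.57 (interval 2.17 to 2.98) and 0.77 (interval 0.36 to 1.16). Vegfa, at 17.6 and 5.43 CPM with the stress pair (1.70, interval 1.15 to 2.25), was at 7.32 and 7.48 CPM with the metabolic pair (-0.01, interval -0.74 to 0.63). Asns differed less, with 0.77 and 0.90. p53 targets had a median of 0.55 with the stress pair, where 6 of 13 were higher, against -0.11 with the hypoxia pair and -0.23 with the metabolic pair. In the wild type the top of the stress pair was led by Meg3, Thbs1 and Bgn, genes of fibroblast and matrix cells. The part of these cells in the p53 counts was not tested. The hypoxia pair was led by the homeobox genes Rhox6 and Rhox9 beside Anxa2 and Espn.

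By their summed UMIs, some of these lists were related across single cells and others little. Spearman's rho between the hypoxia pair and the HIF list was 0.50 over the 740 wild-type and 0.41 over the 632 knockout cells, between the stress regulators and the amino acid list 0.47 and 0.60, and between glycolysis and the mitochondrially encoded genes -0.58 and -0.52. Between the stress pair and the HIF list it was 0.39 and 0.31. With the stress regulators, rho was near 0 in the wild type for HIF targets (0.006, and 0.092 in the knockout), glycolysis (0.017 and 0.29) and the hypoxia pair (0.075 and 0.24), and low for the stress pair (0.10 and 0.27). Eif4ebp1 leads the sum of that list, so these values say little about its other genes. By gene, 5 of its 9 measured genes were 1.5 times or more higher in the wild-type top of the hypoxia pair (median log2 ratio 0.72), beside 4.37% of all genes. Some pairs of lists had opposite signs in the libraries, such as mitochondrially encoded genes and endoplasmic reticulum chaperones (-0.19 and 0.12). Cells share depth and library, and shares of 1 total are tied to each other, so these are descriptions. When wild-type cells were clustered without the score genes, 62 of the 111 members fell in 1 cluster of 164 cells, of which they made up 37.8%. Another 32 were in a cluster of 225 cells, 16 in one of 83 cells led by Meg3, Thbs1 and Bgn, and 1 in one of 28 cells. None was in a cluster of 220 cells or in one of 20. Of the nearest neighbours of a member in that space, 51.6% on average were members, against 3.47% for cells of the lowest 50% and 15% for all cells. The members thus lay in several clusters and formed no cluster of their own.

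In the knockout library, 32 of 632 filtered cells scored above the wild-type limit (5.06%, Clopper-Pearson interval 3.49 to 7.07), beside the 15% that the rule set in the wild type. The barcodes of the libraries overlapped in 2 cells. Of the 32 knockout cells, 24 had a raised share of chromosome 8 transcripts (75%, interval 56.6 to 88.5), and the part of this in their values was not tested. The makeup of the score differed. Against the lowest 50% of knockout cells, 492 of 4587 genes (10.7%) were 1.5 times or more higher in these 32 cells and 608 (13.3%) lower. In them Ddit4 gave 54.2% of the score UMIs, Bnip3 20.05% and Ldhb 6.98%. Over all filtered cells, Ldhb was at 182 CPM in the wild type and 38.7 CPM in the knockout, Bnip3 at 134 and 55.4 CPM and Ndufa4l2 at 39.4 and 13.3 CPM, whereas Ddit4 was at 115 and 100.1 CPM and Ddit3 at 23.7 and 21.0 CPM. With the score and the limit recomputed without Ldhb, 9.02% of knockout cells were above it, and with Ddit3 and Ddit4 alone 12.3%, so the share depends on which genes are in the score. Genotype, clone and library cannot be told apart here.

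The knockout library also gives the same comparison in cells that had no part in choosing the wild-type cells. Its 95 cells of the top 15% by their own scores (459 CPM or more) were set against its 316 cells of the lowest 50%. A raised share of chromosome 8 transcripts was found in 64.2% of these score-high cells (interval 53.7 to 73.8) and in 50% of the lowest 50% (interval 44.4 to 55.6). In the wild type the order was the opposite, 5.41% and 12.7%. Ankrd37, named below, lies on chromosome 8. The part of this difference in the ratios was not tested. Of 4627 knockout genes, 217 (4.69%) were 1.5 times or more higher and 312 (6.74%) lower. Of the 295 genes higher in wild-type score-high cells, 122 (41.4%) were also 1.5 times or more higher in the knockout, and 267 (90.5%) had the same sign. Of the 265 lower genes, 108 (40.8%) were also lower by 1.5 times, and 253 (95.5%) had the same sign. Over all 4329 genes the sign was shared by 76.0%. From the side of the knockout, 109 of its 217 higher genes (50.2%) and 161 of its 312 lower genes (51.6%) passed 1.5 times in the same direction in the wild type. In both directions, the minimum level was required only in the library where the genes were first called. Across the 4329 genes, which are not independent, Pearson's r of the ratios was 0.71. Anxa2 was at 73.2 and 9.12 CPM in the knockout groups (log2 ratio 3.0), Stc2 at 38.6 and 7.73 CPM (2.32), Egln3 at 91.1 and 9.70 CPM (3.23), Ankrd37 at 157 and 21.8 CPM (2.85), Chac1 at 84.2 and 16.9 CPM (2.32) and Cdx1 at 6.19 and 41.9 CPM (-2.72). By list, the knockout medians were 0.90 for HIF targets, 1.21 for glycolysis, 0.80 for stress regulators, 0.65 for amino acid genes, -0.47 for mitochondrially encoded genes and -0.43 for core pluripotency factors, beside -0.03 over all genes. Other lists stood differently in the libraries. The median of endoplasmic reticulum chaperones was 0.25 in the wild type and -0.23 in the knockout, where Pdia6 had -0.11, and p53 targets were higher in 1 of 12 cases in the wild type (median 0.01) and in 5 in the knockout (median 0.38). Tle4, with -1.28 in the wild type, had -0.20 in the knockout (64.1 and 73.7 CPM). Slc7a5 was at 150 and 129 CPM in the knockout (0.22).

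Cells of other types weighed more in the knockout. Of its 632 filtered cells 133 had 5 or more UMIs of fibroblast, primitive endoderm or macrophage markers, against 21 of 740 in the wild type. Of the 95 score-high knockout cells 15 did, and they included 12 with primitive endoderm markers and 3 with fibroblast markers. That group's fibroblast markers summed to 899 UMIs. Of the 316 cells of the lowest 50% 74 did, and they included 59 with primitive endoderm markers. In all, 108 filtered knockout cells had 5 or more UMIs of primitive endoderm markers. These markers summed to 583 UMIs in the score-high and 5155 in the lowest 50% of knockout cells. Srgn, Dab2 and Cubn, of that marker list, were among the knockout genes of lowest ratio. The knockout genes of highest ratio, Lyz2, Mgp and Meg3, are a macrophage gene and genes of matrix and fibroblast cells. Without such cells in either library the genes above had these values. Anxa2 had 3.54 in the wild type and 4.14 in the knockout, Egln3 1.98 and 3.19, Ankrd37 1.5 and 2.95, Chac1 1.78 and 2.35, and Cdx1 -2.76 and -2.66. Without these cells, 298 of 4310 genes (6.91%) were higher in the wild type's score-high cells and 260 (6.03%) lower. Of 8 measured immediate early genes, the wild type's score-high cells had 2 higher, Jun and the stress-induced gene Ier3 (35.2 and 14.1 CPM, 1.32), with a median of 0.22, and the knockout median was 1.51. In the wild type, 1 cell gave 21.0% of the members' Ier3 UMIs, and 1 cell gave 31.2% of those in the lowest 50%. Fos and Egr1, chosen after their values were seen, were higher in the knockout's score-high cells (2.03 and 2.19) and not in the wild type's (0.22 and -0.11). Without the other cell types the knockout values were 1.33 and -0.23.

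**Figure D5:**
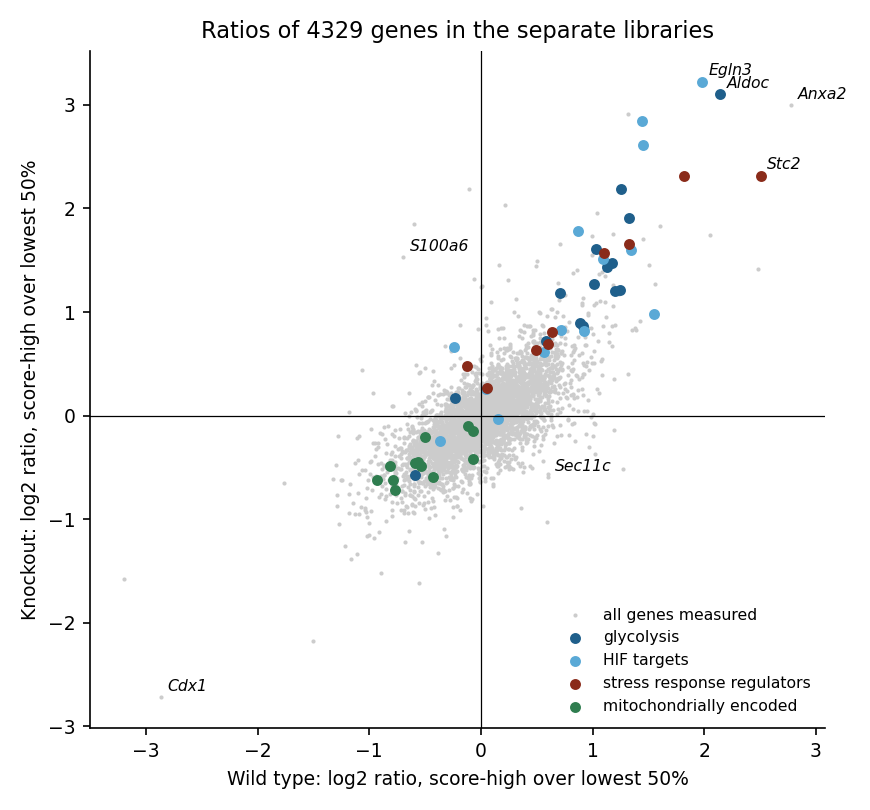
Log2 ratio of score-high cells over the lowest 50% in the wild type (x axis) and in the knockout by its own limit (y axis), 1 point per gene for 4329 genes, with 4 lists in colour. Points lie along the diagonal (Pearson's r 0.71 across genes), and S100a6 and Sec11c lie on opposite sides of 0 in the 2 libraries.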

How the data were processed

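Each library was deposited as 1 sparse matrix of raw UMI counts, integers by the file headers, with no scaling by the authors. Cell Ranger 2.0.0, Seurat 3.1.1 and build mm10 are named in the submitters' processing notes. The annotation, the rule for calling cells and the handling of shared reads are not given in the sources used here. Of 27998 deposited genes, 27645 (98.7%) matched GENCODE M21 by identifier, which gave the coordinates.

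Cells were filtered at 1000 genes, 15000 UMIs and 1 to 10% mitochondrial UMIs, and split by score into the top 15% and the lowest 50%. Counts were summed per group and scaled to CPM, and log2 ratios were taken with 0.5 counts added. Genes were measured from a mean level of 20 CPM, and 1.5 times or more was called higher or lower. Intervals at 95% are exact (Poisson for CPM, the conditional binomial for ratios, Clopper-Pearson for shares). They cover counting error only. The groups held 3382697 and 10931703 UMIs in the wild type and 2744579 and 8662229 in the knockout. With 1 library per genotype there was no test.

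The members and the gene lists were chosen with earlier results of these data known. The text names the 15 genes of highest and 10 of lowest ratio, score and mitochondrial genes left out, and from each list up to 4 genes of greatest ratio and, in lists described in depth, every gene past 1.5 times. A few genes that the rule names are not reported here. List members short of 1.5 times, members below the minimum level and the genes of the single pairs are named beyond that rule and were chosen after their values were seen.

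Cells were thinned to 15000 UMIs for counts per cell. Clustering (2000 variable genes without the score genes, 30 components, 15 neighbours, Leiden resolution 0.5), phases and Scrublet used scanpy 1.11.5. Scrublet called 2 wild-type cells and 1 knockout cell, of which 2 wild-type cells passed the filter. The ratios were tested on simulated counts.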

Additional observations from a re-analysis of the deposited data

Results flagged for a closer look

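Of the 295 genes higher in the wild type's score-high cells, 2 were 1.5 times or more lower in those of the knockout, and of the 265 lower genes, 2 were higher there. Values are given for 2 of these genes, both at the minimum level or above in each library. The differences were not tested, since there is 1 library per genotype. Sec11c, a signal peptidase subunit, had a log2 ratio of 0.60 (33.4 and 22.0 CPM in score-high and lowest 50% cells) in the wild type and -0.59 (19.3 and 29.3 CPM) in the knockout, a difference of 1.19. S100a6, a calcium-binding protein, had -0.70 (53.5 and 86.9 CPM) and 1.53 (465 and 161 CPM), a difference of -2.23. Without cells that carry markers of fibroblasts, primitive endoderm or macrophages, the wild-type and knockout ratios were 0.56 and -0.48 for Sec11c and -0.29 and 0.77 for S100a6.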

How the results depend on the processing

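Under the 17 alternatives, the 10 main results (the counts of higher and lower genes, those shared with the knockout, the knockout share and 6 list medians) gave 137 values close to the reported ones and 27 that moved, and no list median among them changed sign. Over 95 named genes, 1220 of 1425 values were close, 203 moved and 2 changed sign: ranked by Ddit3 and Ddit4 alone, Dppa3 (reported 0.95) was -0.27 and the nuclear RNA Neat1 (reported -0.80) was 0.664. The p53 median of 0.01 ranged from -0.107 to 0.547, and the sterol median of 0.24 from 0.00646 to 0.869. The reported knockout share of 5.06% was 9.02% without Ldhb, 12.3% with Ddit3 and Ddit4 alone and 3.01% for the top 10% of cells. The HIF median of 0.89 was 1.03 without Ldhb, 0.78 in thinned cells, 1.06 for the top 10%, 0.709 for the top 20% and 0.65 against all other 85% of cells. Core pluripotency was -0.561 without Ldhb and -0.336 with Ndufa4l2 and Bnip3 alone, tRNA synthetases 0.161 with that pair, glycolysis 0.88 with Ddit3 and Ddit4 and 0.814 against the other 85%, amino acid genes 0.54 for the top 10% and stress regulators 0.484 for the top 20%. The counts of higher, lower and shared genes (295, 265 and 230) were 191, 167 and 134 with Ndufa4l2 and Bnip3, 190, 176 and 132 against the other 85%, 493, 520 and 394 from a minimum of 10 CPM and 136, 100 and 96 from 50 CPM, where more or fewer genes are measured. Below the minimum level counts are few and intervals wide. No paired analysis was possible because there is a single library of each genotype, without replicate numbers.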

Other observations

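Some genes of lysosomal proteins were chosen after their values were seen, with no list fixed, and show nothing about lysosomal genes as a group. Hexa, a hexosaminidase subunit, was at 75.7 and 30.4 CPM (log2 ratio 1.32) in score-high and lowest 50% cells, the protease gene Ctsl at 132 and 64.9 CPM (1.03), the thiol reductase gene Ifi30 at 53.8 and 23.5 CPM (1.2) and the membrane protein gene Lamp2 at 28.4 and 14.3 CPM (0.99). In the knockout the ratios were 0.40, -0.37, -0.14 and 0.51 in that order, and 0.72, 0.58, 0.56 and 0.29 without cells of other types.

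Other single genes were chosen in the same way. The claudin genes Cldn4 and Cldn7 had log2 ratios of 1.19 and 1.11 in the wild type and 1.26 and 1.09 in the knockout, and Elf3, an epithelial transcription factor, had 1.39 and 0.83. Lefty1, an inhibitor of Nodal signalling, was at 233 and 105 CPM in the wild type (1.15) and at 90.4 and 51.9 CPM in the knockout (0.80). Lower in both were Mpc1, a subunit of the mitochondrial pyruvate carrier (81.4 CPM in the lowest 50% and 34.0 CPM in score-high wild-type cells, -1.25, and -0.62 in the knockout), Etv4 and Erf, factors of the ETS family (-1.04 and -1.18, and -0.53 and -0.94 in the knockout), and Zfp57, which guards imprints (-1.17 and -1.38).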
